A study of Mus musculus with 8 samples.

Results

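The genes described here encode parts of the cilium: 81 genes of the 18193 with a probe set of their own on the array. They were chosen by symbol: axonemal dyneins (Dnah, Dnai, Dnal), radial spoke proteins (Rsph), tektins (Tekt), cilia and flagella associated proteins (Cfap), intraflagellar transport proteins (Ift), Bardet-Biedl syndrome proteins (Bbs), and Foxj1, Ccdc39, Ccdc40, Spag6, Spag16, Spag17, Tppp3 and Hydin. Of these, 59 belong by that rule to the motile cilium and 22, the Ift and Bbs genes, to cilia in general. The array names Dnai1 and Dnai2 as Dnaic1 and Dnaic2. Where a gene had several probe sets, the one with the highest mean over the 8 arrays stood for it.

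RNA came from mouse neural stem cells (NSCs) grown as secondary neurospheres, floating spheres of passaged cells. The series text speaks of adult brain and the methods of embryonic and adult striatum, so the age of the source is not settled here. Cultures received rcCHIL3 or MHM + GF and were taken at 3 or 7 days, with 2 arrays for each of the 4 groups. CHIL3, called ECF-L in the labels, is a secreted chitinase-like protein. The study's methods describe rcCHIL3 as obtained in MHM from HEK293T cells, a human kidney line, transfected with Chil3. MHM is a hormone-supplemented medium, and GF stands for EGF and FGF-2, which the name of the rcCHIL3 group lacks. CHIL3, the missing growth factors and the conditioned medium therefore cannot be told apart in any comparison of media. The study's supplement calls the arrays of a group independent experiments, and whether these began from separate animals is not given in the sources used here. The p-values measure the spread between these experiments. A whole sphere was measured in bulk, and more cells of a type cannot be told apart from more RNA per cell.

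Cilia are microtubule-based projections of the cell surface. A primary cilium is single and immotile and serves signalling, whereas motile cilia, such as those of ependymal cells lining the brain's ventricles, beat by means of dynein arms, radial spokes and a central pair of microtubules. Both kinds are built by intraflagellar transport, and RFX transcription factors act on the genes of both kinds, whereas FOXJ1 is the master regulator of the motile programme. Cilia are taken down before mitosis and rebuilt after it.

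RFX factors bind a motif called the X-box, so the RefSeq promoter windows of the members (build GRCm38.p6, from 250 bases before a transcription start to 50 after it) were searched for it. The pattern was GTNNCC followed, after 0 to 3 bases, by GGNNAC, which reads the same on both strands. Promoters were at hand for 68 of the 81 members, with several windows for genes with several annotated starts. The X-box pattern was in 5 of 19 general promoters (26.3%) and 7 of 55 motile promoters (12.7%), against 3.86% of the 32851 promoters in the table. A shorter RFX motif, GTTGCC on either strand, can lie within the X-box and was in 8 general promoters (42.1%), 14 motile ones (25.5%) and 12.5% of all. The forkhead motif GTAAACA on either strand, which FOXJ1 and other forkhead factors can bind, was in none of the general promoters, 4 motile ones (7.27%) and 3.65% of all. These counts describe letters in a window and say nothing of which factor was bound.

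Matches in some of the members bright enough to be tested are shown because they let the reader compare the motif between both classes. Each stretch is 30 bases of the gene's own strand, 5′ to 3′, with the X-box match in capitals. In the motile class the matches lay at chr1:171122955-171122984 for Cfap126 (plus strand), chr16:90935016-90935045 and chr16:90934897-90934926 for Cfap298, chr19:47837413-47837442 for Cfap43 and chr17:46144185-46144214 for Rsph9 (all minus strand). The Cfap126 match belongs to 1 of 3 annotated starts of that gene.
Cfap126: tgttcaagGTATCCATGGCTACttctcagt
Cfap298, upstream match: gggttttgGTTGCCCGGGCAACagctactt
Cfap298, downstream match: gtttgactGTTGCCCCTGGCAACagccact
Cfap43: gggttcccgGTCTCCAGGATACaggtgtaa
Rsph9: ggctcaggGTCTCCATGGAGACagcttcta

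In the general class they lay at chr19:4906605-4906634 for Bbs1, chr9:59353464-59353493 for Bbs4 and chr3:36613489-36613518 for Bbs7 (minus strand), and at chr5:136908079-136908108 and chr5:136908109-136908138 for Ift22 (plus strand).
Bbs1: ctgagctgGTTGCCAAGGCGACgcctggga
Bbs4: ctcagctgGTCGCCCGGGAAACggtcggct
Bbs7: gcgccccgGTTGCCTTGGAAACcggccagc
Ift22, upstream match: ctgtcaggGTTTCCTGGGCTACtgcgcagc
Ift22, downstream match: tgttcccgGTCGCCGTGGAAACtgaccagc

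Cfap298 held the pattern at a pair of places, and the whole 250 bases before its start are given at chr16:90934850-90935099 (minus strand), with the matches in capitals.
Cfap298: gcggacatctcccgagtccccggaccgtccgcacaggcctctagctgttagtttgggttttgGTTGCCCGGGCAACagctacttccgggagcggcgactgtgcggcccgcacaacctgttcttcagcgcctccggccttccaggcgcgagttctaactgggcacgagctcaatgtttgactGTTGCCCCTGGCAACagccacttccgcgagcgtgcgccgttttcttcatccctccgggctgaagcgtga

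The arrays of a group were close to each other, with correlations of 0.992 to 0.994 over the tested probe sets, and no array stood apart. Signals below are linear and scaled to an array average of 100, and changes are differences of log2(signal + 20), which understates the change of dim genes. A gene was tested when its probe set reached 50 on at least 2 arrays, and called at an adjusted p under 0.05 in limma. The 7 neural stem and progenitor markers on the array summed to signals of 6813 to 9285 on each array. The 5 microglia markers summed to at most 46.1 and the 4 endothelial markers to at most 39.5, and no gene of either list was tested.

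Of the 81 members, 35 passed the filter, 16 of the 59 motile and 19 of the 22 general ones. The general machinery was therefore almost wholly measurable, whereas most of the motile machinery was dim. Among the tested motile members, 7 passed through the 7-day groups alone, among them Cfap43 through the rcCHIL3 7-day group. Of the general members, 3 passed through the 7-day groups alone, Bbs4 and Bbs12 through the MHM + GF group and Bbs5 through the rcCHIL3 group. Such members had to be bright late, or bright in 1 medium, so counts over the tested members are given as a description. Of the 15 dynein members only the light chains Dnal1 and Dnal4 were tested, of the 6 radial spoke members Rsph1 and Rsph9, of the 25 Cfap members 9, and of the 5 tektins and 3 Spag members none. All 3 IFT-A genes, 10 of 11 IFT-B genes and 6 of 8 Bbs genes were tested.

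The mean signal was highest in the rcCHIL3 7-day group for 13 of the 16 tested motile members and for 8 of the 19 general ones. It was highest in the MHM + GF 7-day group for 1 motile and 10 general members. The lowest group was a 3-day group for all 16 motile members, namely MHM + GF for 11 and rcCHIL3 for 5, and for 18 of the 19 general ones. Ift140 alone was lowest at 7 days with rcCHIL3. The same counts were not made over all genes, and 7 motile and 3 general members passed through the 7-day groups alone. These counts therefore describe the tested members only.

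Both classes were higher at 7 than at 3 days, in both media. In MHM + GF, 11 of 16 motile and 13 of 19 general members rose with time, beside 34% of the 8965 tested genes. Only the motile member Cfap36 fell, beside 24.2% of all. In rcCHIL3, 14 motile and 14 general members rose and none of either class fell, beside 20.3% and 18.1% of all genes. The median change in MHM + GF was 0.73 for motile and 0.42 for general members, beside 0.07 for all tested genes. In rcCHIL3 the medians were 0.88, 0.49 and 0.01. Between these separate sets of arrays, 10 motile (62.5%) and 9 general members (47.4%) rose in both media, as did 10.9% of all genes. The tested members include 7 motile and 3 general ones that passed the filter through the 7-day groups alone. Those had to be bright late, so the counts and medians for time are a description only.

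The comparison of media gave fewer calls than time did. At 3 days, 5 motile members were higher and 3 lower with rcCHIL3 than with MHM + GF, and of the general members 2 were higher and 4 lower, beside 30.3% higher and 22.1% lower among all genes. These shares are near or below the background. The medians were 0.15 for motile, -0.04 for general and 0.04 for all genes. At 7 days, 8 of the 16 motile members were higher and none lower, whereas 4 of the 19 general members were higher and 2 lower, beside 21.8% and 22.6% of all genes. Bbs4 and Bbs12, which were lower, and Cfap43 and Bbs5, which were higher, passed the filter through no other group than the one where they were high. Rsph1, also higher, would not have passed without the rcCHIL3 7-day arrays. The median was 0.35 for motile members, -0.00 for general members and -0.01 for all genes. The difference between the classes was not tested.

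**Figure D1:**
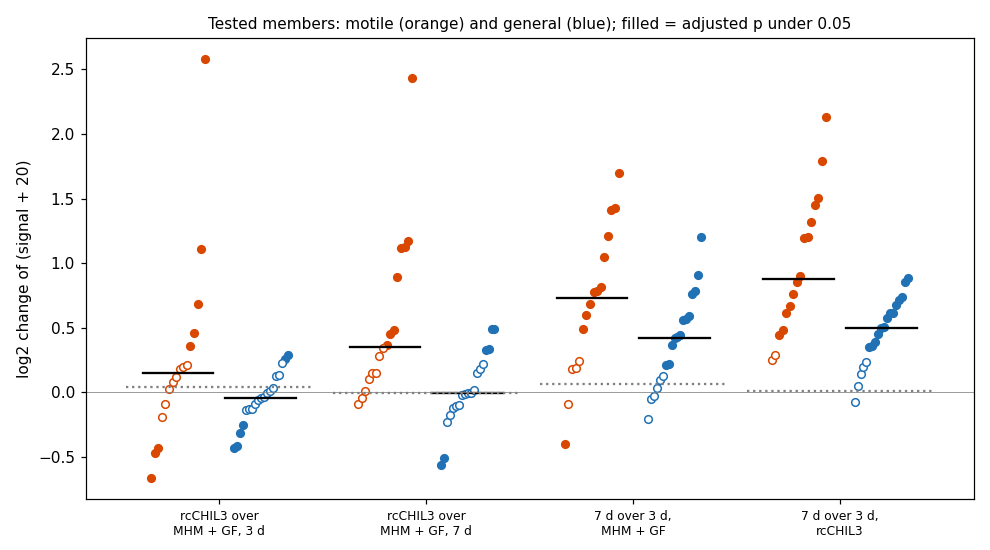
Log2 change of signal + 20 (vertical axis) of each tested member in the 4 comparisons (horizontal axis), with 16 motile members in orange and 19 general members in blue, each ordered by size. Filled points were called at an adjusted p under 0.05, black bars are class medians and dotted lines the median of all tested genes. Both classes lie mostly above 0 for time, and at 7 days the motile points with rcCHIL3 reach higher than the general ones.

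Foxj1, the transcription factor that drives motile cilium formation, followed both time and medium. Its signal was 38.1 and 41.2 on the MHM + GF arrays at 3 days and 129 and 149 at 7 days. In rcCHIL3 the signal was 107 and 111 at 3 days and 269 and 281 at 7 days. The groups did not overlap, and the 3-day rcCHIL3 arrays lay between both MHM + GF groups. At 3 days Foxj1 was higher with rcCHIL3 by 1.11 in log2 signal (SE 0.09, adjusted p = 1.4e-06) and by 0.89 at 7 days (SE 0.09, adjusted p = 1.7e-05). The difference between these effects was -0.22 (SE 0.13, adjusted p = 0.2).

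Tppp3, a microtubule-binding protein of the tubulin polymerization promoting family, had the largest medium effect of the tested members at both days. Its signal was 30.6 and 30.1 in MHM + GF at 3 days and 84.4 and 83.7 at 7 days, against 289.9 and 274 with rcCHIL3 at 3 days and 546 and 541 at 7 days. Even the 3-day rcCHIL3 arrays thus exceeded the 7-day MHM + GF arrays. The rcCHIL3 effect was 2.58 at 3 days (SE 0.08, adjusted p = 6.7e-10) and 2.44 at 7 days (SE 0.08, adjusted p = 5.7e-09). Over time it rose by 1.05 in MHM + GF and 0.90 in rcCHIL3.

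Cfap126, which helps to dock and place basal bodies in multiciliated cells, was near the bottom of the scale in MHM + GF at 3 days, with signals of 6.67 and 14.7. It reached 67.1 and 92.2 in MHM + GF at 7 days. With rcCHIL3 it was 30.1 and 27.8 at 3 days and 179 and 209.8 at 7 days, the highest values of the 4 groups. The change with time was 2.13 in rcCHIL3 (SE 0.15, adjusted p = 1.5e-06) and 1.70 in MHM + GF (SE 0.15, adjusted p = 2.6e-06). The rcCHIL3 effect was 0.69 at 3 days (adjusted p = 0.0026) and 1.11 at 7 days (adjusted p = 0.00014).

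Cfap43, an axonemal protein of beating cilia and sperm tails, had the same order of groups. It was 4.33 and 6.96 in MHM + GF at 3 days, 23.2 and 24.9 at 7 days, 18.1 and 12.5 with rcCHIL3 at 3 days and 81.8 and 70.6 at 7 days. Only the rcCHIL3 7-day arrays exceeded the filter. The rcCHIL3 effect was 0.46 at 3 days (SE 0.12, adjusted p = 0.0064) and 1.13 at 7 days (SE 0.12, adjusted p = 2.1e-05), and it grew by 0.67 between the days (SE 0.16, adjusted p = 0.0074). The 3-day call was lost without the first rcCHIL3 array of that day (0.35, adjusted p = 0.07) or the first MHM + GF array (0.39, adjusted p = 0.05), and the difference between the days was not called on the deposited scale (0.72, adjusted p = 0.066). Across all tested members, Foxj1, Tppp3, Cfap126 and Cfap43 were the 4 that were higher with rcCHIL3 at both days, and none was general. Of all genes 10% had that pattern.

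Of the radial spoke head, which passes signals from the central pair to the dynein arms, Rsph1 and Rsph9 were tested. Rsph1 was 43.2 and 33.2 in MHM + GF at 3 days and 39.7 and 52.9 at 7 days, with overlapping arrays. With rcCHIL3 it was 25.2 and 20.9 at 3 days and 128 and 129 at 7 days. The signal with rcCHIL3 was thus the lowest of the 4 groups at 3 days and the highest at 7 days. The rcCHIL3 effect was -0.43 at 3 days (SE 0.12, adjusted p = 0.013) and 1.17 at 7 days (SE 0.12, adjusted p = 2.6e-05), and the difference between the days was 1.60 (SE 0.18, adjusted p = 3.1e-05). The 3-day call was lost without the first MHM + GF array (-0.31, adjusted p = 0.11) or the second rcCHIL3 array of that day (-0.36, adjusted p = 0.096).

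Rsph9, a partner of Rsph1 in the spoke head, was similar at 3 days in both media, at 44.2 and 39.9 in MHM + GF and 41.6 and 34.9 with rcCHIL3. At 7 days it was 84.7 and 87.7 against 118 and 133. It rose in both media, by 0.78 in MHM + GF (adjusted p = 6.1e-05) and 1.32 in rcCHIL3 (adjusted p = 2.9e-06). The medium effect was 0.45 at 7 days (SE 0.10, adjusted p = 0.0042).

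Other motile members followed time and were not called for medium. Ccdc39, which with Ccdc40 sets the spacing of inner dynein arms along the axoneme, was 33.9 and 39.0 in MHM + GF at 3 days and 107 and 114 at 7 days. With rcCHIL3 it was 29.1 and 29.7 and then 132 and 109. The 7-day arrays of both media overlapped, and the rises were 1.21 (SE 0.11, adjusted p = 2.4e-06) and 1.51 (SE 0.11, adjusted p = 1.5e-06). Cfap54, a protein of the central pair, rose in the same way, from 34.0 and 34.7 to 127 and 126 in MHM + GF and from 42.3 and 40.9 to 129 and 114 with rcCHIL3. Its medium effect was 0.18 at 3 days (SE 0.09, adjusted p = 0.12) and -0.05 at 7 days (SE 0.09, adjusted p = 0.7).

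Dnal1, a light chain of the outer dynein arm, was 112 and 113 in MHM + GF at 3 days, 221 and 207 at 7 days, and 127, 138, 248 and 229 on the rcCHIL3 arrays in the same order. It rose by 0.81 in MHM + GF (adjusted p = 6.7e-06) and by 0.76 in rcCHIL3 (adjusted p = 3.1e-05). The other tested light chain, Dnal4, was called in no comparison, with changes of 0.08 to 0.25. Cfap410, a protein of the base of the cilium, rose from 25.6 and 29.5 to 48.3 and 55.9 in MHM + GF and from 27.2 and 29.4 to 82.9 and 54.3 with rcCHIL3. Its 7-day rcCHIL3 arrays lay far apart, and the medium effect at 7 days was 0.28 (SE 0.14, adjusted p = 0.13).

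**Figure D2:**
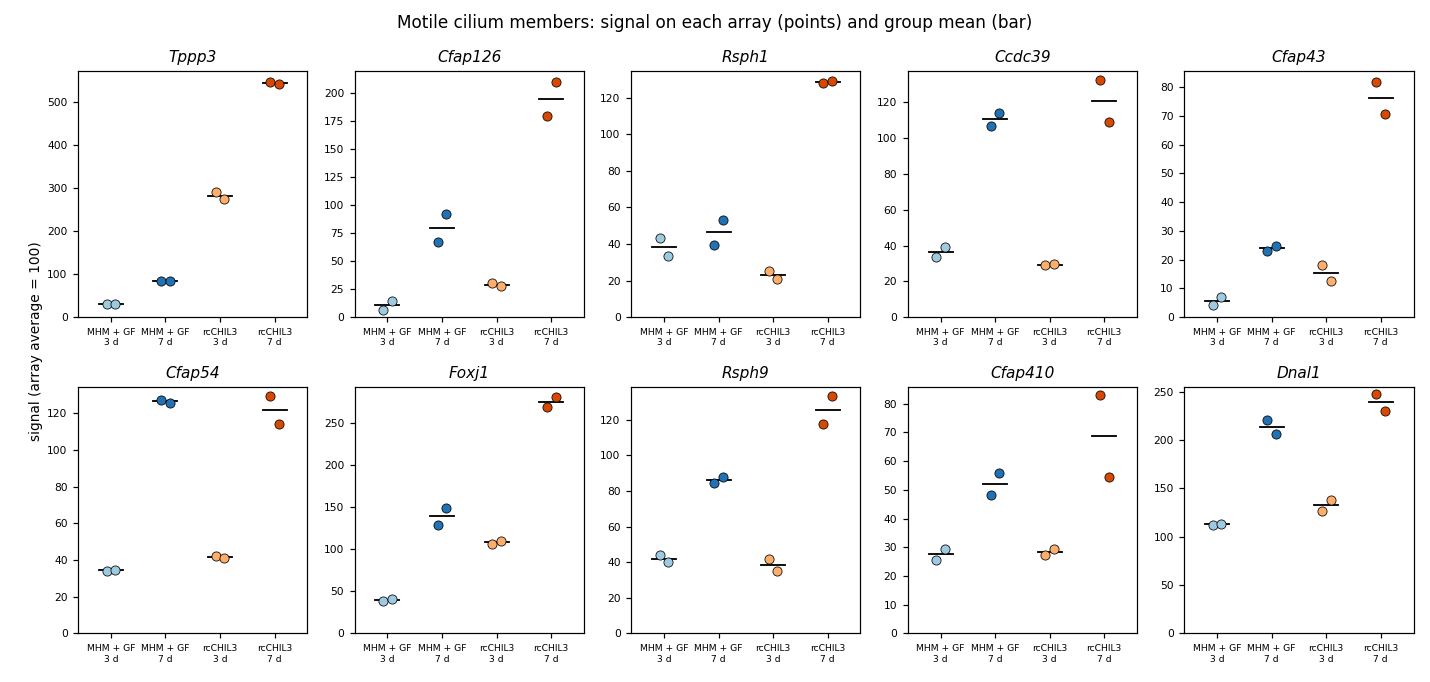
Signal on each array (points, vertical axis, array average 100, from 0) and group mean (bar) of the 10 motile members with the largest called changes, in the 4 groups (horizontal axis). Tppp3, Foxj1, Cfap126 and Cfap43 differ by medium at both days, Rsph1 and Rsph9 are above MHM + GF at 7 days, and Ccdc39, Cfap54, Cfap410 and Dnal1 rise with time in both media.

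Not every gene with a Cfap symbol is confined to motile cilia, and the brightest of them behaved differently from those above. Cfap20, a microtubule inner junction protein found in primary cilia too, was lower with rcCHIL3 at 3 days, at 209 and 201 against 336 and 337 (-0.66, SE 0.07, adjusted p = 7.4e-06). At 7 days it was 290.3 and 300.0 against 315 and 314, which was not called. Cfap36, a binder of the ciliary GTPase ARL3, was 343 and 390.4 in MHM + GF at 3 days and fell to 283 and 262, whereas with rcCHIL3 it rose from 263 and 254 to 342 and 374. Its rcCHIL3 effect went from -0.47 (adjusted p = 0.00055) to 0.37 (adjusted p = 0.0038). Cfap298 and Cfap300, factors of dynein arm assembly, and Cfap97 made up the rest of the tested motile members. Cfap300 was higher with rcCHIL3 at 7 days, at 132 and 157 against 109.9 and 85.8 (0.48, adjusted p = 0.0074). That call was lost without the second array of either medium at 7 days (0.34 and 0.37, adjusted p = 0.07 in each). Cfap298 had an adjusted p of 0.046 at 3 days that several alternatives lost, and its other tested probe set showed -0.01 there. That other probe set was not called for time in MHM + GF (0.12, adjusted p = 0.24). At 7 days it was called higher with rcCHIL3 (0.38, adjusted p = 0.0038), whereas the one counted was not (0.34, adjusted p = 0.061).

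Among the general members, the IFT-A complex carries cargo back from the tip of the cilium. Ift122 was 117 and 119.9 in MHM + GF at 3 days and 235 and 246 at 7 days, and 156, 144, 248 and 232 with rcCHIL3. It rose by 0.91 (SE 0.08, adjusted p = 1.9e-06) and by 0.61 (SE 0.08, adjusted p = 0.0001). It was higher in rcCHIL3 than in MHM + GF at 3 days by 0.29 (adjusted p = 0.0082), and at 7 days the arrays of both media overlapped. The 3-day call was lost on the deposited scale (0.25, adjusted p = 0.21) and without the first rcCHIL3 array of that day (0.24, adjusted p = 0.072). Ift43 rose from 177 and 178 to 267 and 276 in MHM + GF and from 195 and 197 to 276 and 275 with rcCHIL3, changes of 0.56 and 0.45, with no call for medium. Ift140 was not called with time, at -0.21 and -0.07. At 3 days it was lower with rcCHIL3, at 136 and 129 against 169 and 154 (-0.25, adjusted p = 0.042). That call was lost without any of the 4 arrays of that day (adjusted p from 0.05 to 0.21), with no filter (adjusted p = 0.085) and on the deposited scale (adjusted p = 0.08).

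The IFT-B complex moves cargo towards the tip, and 7 of its 10 tested genes rose with time in MHM + GF and 8 with rcCHIL3, beside 34% and 20.3% of all tested genes. Ift74, a tubulin-binding core subunit, was 135 and 133 at 3 days and 247 and 243 at 7 days in MHM + GF, and 122, 119, 222 and 206 with rcCHIL3. The changes were 0.78 (SE 0.08, adjusted p = 4.9e-06) and 0.74 (SE 0.08, adjusted p = 2.2e-05). Ift22, a small GTPase of the complex, rose from 101 and 102 to 179.7 and 192 in MHM + GF and from 90.9 and 105 to 168 and 144 with rcCHIL3. Neither gene was called for medium at either day, the largest difference being -0.23 for Ift22 at 7 days (SE 0.10, adjusted p = 0.074).

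Ift27, Ift52 and Ift80 were called higher with rcCHIL3 at 7 days. Ift27, a small GTPase needed for export of signalling cargo from the cilium, varied little in MHM + GF, at 240.1, 223, 223 and 221. With rcCHIL3 it was 164 and 173 at 3 days and 323 and 318 at 7 days, below and then above every MHM + GF array. The effect was -0.42 at 3 days (SE 0.07, adjusted p = 0.00054) and 0.49 at 7 days (SE 0.07, adjusted p = 0.00025). A second Ift27 probe set was called in the same directions, at -0.36 and 0.36, and the remaining probe set was called at neither day. The second probe set, unlike the one counted, was also called lower with time in MHM + GF (-0.24, adjusted p = 0.049). Ift52, a core subunit, was 72.6, 72.1, 78.7 and 82.9 on the MHM + GF arrays and rose with rcCHIL3 from 84.0 and 63.1 to 123 and 121, so that the media differed by 0.49 at 7 days (SE 0.11, adjusted p = 0.0037).

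Ift80, a peripheral subunit, rose from 70.5 and 77.0 to 120.2 and 121 in MHM + GF and from 82.9 and 69.3 to 154 and 160.3 with rcCHIL3. It was higher by 0.33 with rcCHIL3 at 7 days (SE 0.09, adjusted p = 0.015). The call was lost without either MHM + GF array of that day (adjusted p = 0.054 and 0.052) or the second rcCHIL3 array (0.31, adjusted p = 0.075). Its second tested probe set was called neither for medium at 7 days (0.33, adjusted p = 0.17) nor for time in MHM + GF (-0.13, adjusted p = 0.56). Ift172 and Ift20 differed at 3 days, Ift172 being lower with rcCHIL3 (-0.43, adjusted p = 0.0026) and Ift20 higher (0.26, adjusted p = 0.02). The Ift20 call was lost on the deposited scale (0.21, adjusted p = 0.32) and without the second array of either medium at 3 days (0.20 and 0.22, adjusted p = 0.12 in each). Ift46, Ift57 and Ift81 were called for time, Ift81 in MHM + GF alone, and not for medium. On the deposited scale the MHM + GF calls of Ift46 (0.31, adjusted p = 0.07) and Ift57 (0.16, adjusted p = 0.42) were lost. Quantile normalization lost that of Ift57 too (0.19, adjusted p = 0.053). A second Ift81 probe set was called in no comparison.

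The BBSome, a coat-like complex, moves membrane proteins in and out of the cilium. Bbs1 rose from 56.2 and 52.8 to 80.5 and 81.7 in MHM + GF and from 51.4 and 51.4 to 103 and 92.2 with rcCHIL3, changes of 0.44 (adjusted p = 0.0017) and 0.72 (adjusted p = 0.00012). Bbs2 rose in MHM + GF, from 66.0 and 79.0 to 121 and 113. With rcCHIL3 it went from 87.0 and 88.9 to 119 and 95.9, which was not called (0.23, adjusted p = 0.12).

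Bbs12 and Bbs4 were lower with rcCHIL3 at 7 days. Both reached 50 only on the MHM + GF arrays of that day, so they were tested because they were high there, and the fit with no filter made both calls too. Bbs12, a chaperonin-like protein that helps to assemble the BBSome, was 15.0 and 14.7 in MHM + GF at 3 days and 62.9 and 57.9 at 7 days. With rcCHIL3 it was 8.64 and 20.2 and then 34.7 and 33.9, so the medium effect at 7 days was -0.56 (SE 0.14, adjusted p = 0.0074). Bbs4, a BBSome subunit, was 63.4 and 77.2 against 44.4 and 42.1 at 7 days (-0.51, SE 0.10, adjusted p = 0.0023). Bbs5 was higher with rcCHIL3 (0.33, adjusted p = 0.02), at 50.8 and 58.7 against 38.5 and 40.2. It was tested through these rcCHIL3 arrays alone, and the call was lost with no filter (adjusted p = 0.057), without either MHM + GF array of that day (adjusted p = 0.078 and 0.055) and without the second rcCHIL3 array (0.25, adjusted p = 0.14). Bbs7 was lower at 3 days (-0.32, adjusted p = 0.019), a call lost without either MHM + GF array of that day (adjusted p = 0.08 and 0.052) or the second rcCHIL3 array (adjusted p = 0.11).

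**Figure D3:**
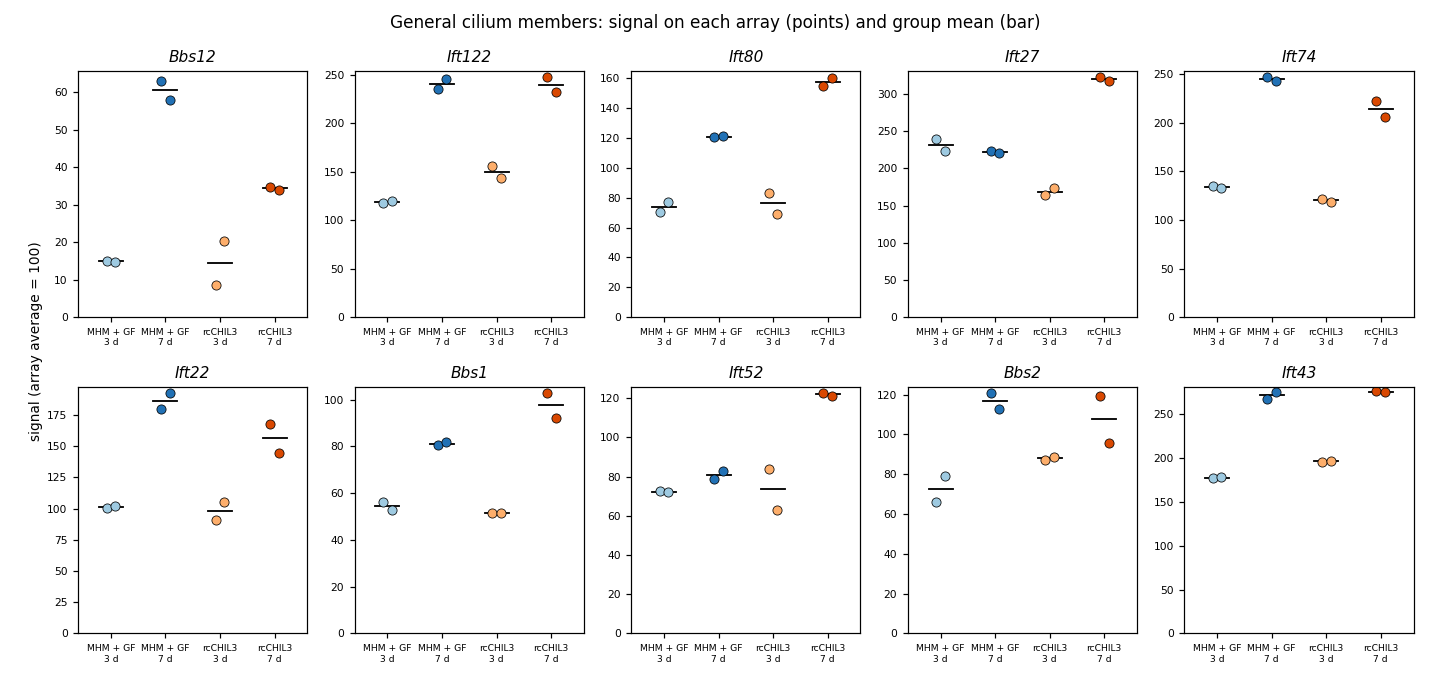
Signal on each array (points, vertical axis, array average 100, from 0) and group mean (bar) of the 10 general members with the largest called changes, in the 4 groups (horizontal axis). Most rise with time in both media, Ift27 and Ift52 rise with rcCHIL3, and Bbs12 is lower with rcCHIL3 than with MHM + GF at 7 days.

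The rcCHIL3 effect differed between the days for some members. It was called larger at 7 than at 3 days for 5 motile members, Rsph1, Cfap36, Cfap43, Cfap20 and Rsph9, and smaller for none. Of the general members it was larger for 4, Ift27, Ift52, Bbs5 and Ift172, and smaller for Ift122. Among all genes 19.2% were larger and 24.1% smaller. Rsph1, Cfap43 and Bbs5 passed the filter only with the rcCHIL3 7-day arrays. Cfap36, Rsph1 and Ift27 were lower with rcCHIL3 at 3 days and higher at 7 days, a pattern of 3.5% of all genes.

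**Figure D4:**
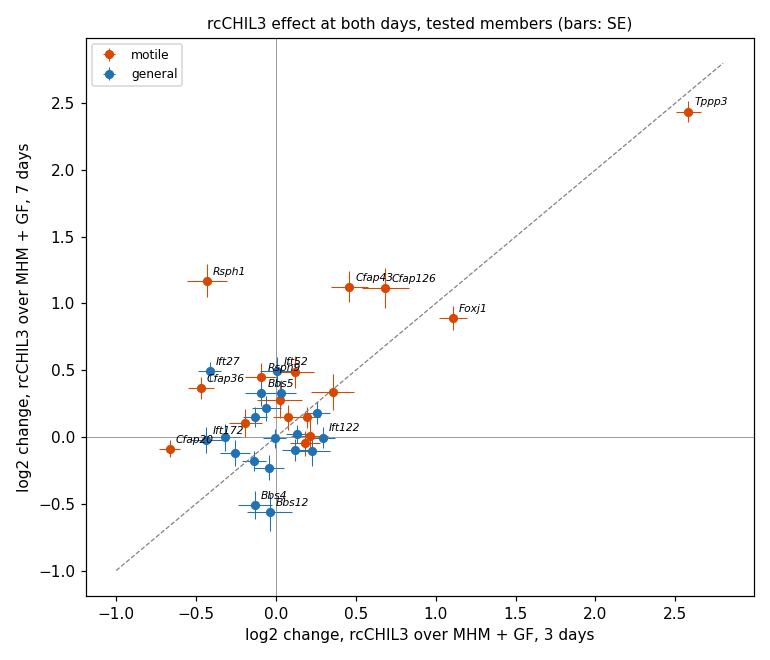
Log2 change of rcCHIL3 over MHM + GF at 3 days (horizontal axis) against 7 days (vertical axis) for the 35 tested members, with SE bars, motile in orange and general in blue, and the dashed line where both are equal. Tppp3 and Foxj1 lie far to the right, Rsph1, Ift27 and Cfap36 lie in the upper left, and Bbs4 and Bbs12 lie lowest.

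The 46 members under the filter were 43 motile and 3 general genes. Of the motile ones, 35 reached a signal of 20 on no array, among them the dynein heavy chains other than Dnah6, Hydin, the Spag genes and most tektins. The group means of all 43 motile members under the filter ran from 0.327 to 45.5. For 24 of the 43 the highest group mean was in the rcCHIL3 7-day group, a count that was not made over all genes. The brightest under the filter were Ift88, an IFT-B core subunit, with signals of 27.0 to 41.7, and then Dnaic1, an intermediate chain of the outer dynein arm, the BBSome subunit Bbs9, Rsph3a and Cfap69.

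With every probe set fitted and no filter, all 81 members could be counted. At 3 days, 7 of the 59 motile members were higher and 5 lower with rcCHIL3, and 2 of the 22 general ones higher and 3 lower, beside 14.5% and 11.8% of all 18193 genes. At 7 days, 12 motile members were higher and 3 lower, and 3 general ones higher and 2 lower, beside 10.2% and 10.2%. With time in MHM + GF, 21 motile members rose and 2 fell, and 13 general members rose and none fell, beside 18.2% and 12.9%. With time in rcCHIL3, 22 motile and 15 general members rose and none fell, beside 9.99% and 7.8%. The medians over all 59 motile members were 0.01, 0.10, 0.23 and 0.25 in these comparisons. Over the 22 general members they were -0.05, -0.01, 0.39 and 0.47, and over all genes 0.01, -0.004, 0.03 and 0.01. For time the general medians were thus above the motile ones, the reverse of the order among the tested members.

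Some dim members were picked after their values were seen. Cfap69, a central pair protein, was 13.1 and 10.5 in MHM + GF at 3 days, 24.6 and 28.1 at 7 days, 8.81 and 8.16 with rcCHIL3 at 3 days and 47.1 and 42.8 at 7 days. Rsph4a, a further spoke head protein, was 2.43, 2.87, 7.39, 10.01, 3.56, 5.76, 26.4 and 27.7 in the same order, and Tekt1, a tektin of the microtubule wall, was 6.48, 7.28, 19.9, 18.8, 5.11, 5.09, 29.6 and 34.8. In these genes the rcCHIL3 7-day arrays were the highest, and the fit without a filter called them higher than MHM + GF at 7 days by 0.49, 0.71 and 0.41 (adjusted p = 0.018, 0.0016 and 0.031). Cfap57 was also called higher (0.64, adjusted p = 0.0084). Of all 43 dim motile members, that fit called 4 higher and 3 lower at 7 days, beside 10.2% and 10.2% of all genes. These shares are near or below the background. As the genes were picked by the values tested, their p-values are given as a description. The 3 dim members that were lower with rcCHIL3 at 7 days were Dnah6, an inner arm dynein heavy chain, Tekt5 and Rsph6a. Dnah6 was 34.5 and 56.6 in MHM + GF against 19.5 and 13.2 (-0.83, adjusted p = 0.042), and Tekt5 and Rsph6a stayed below 13 on every array.

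**Figure D5:**
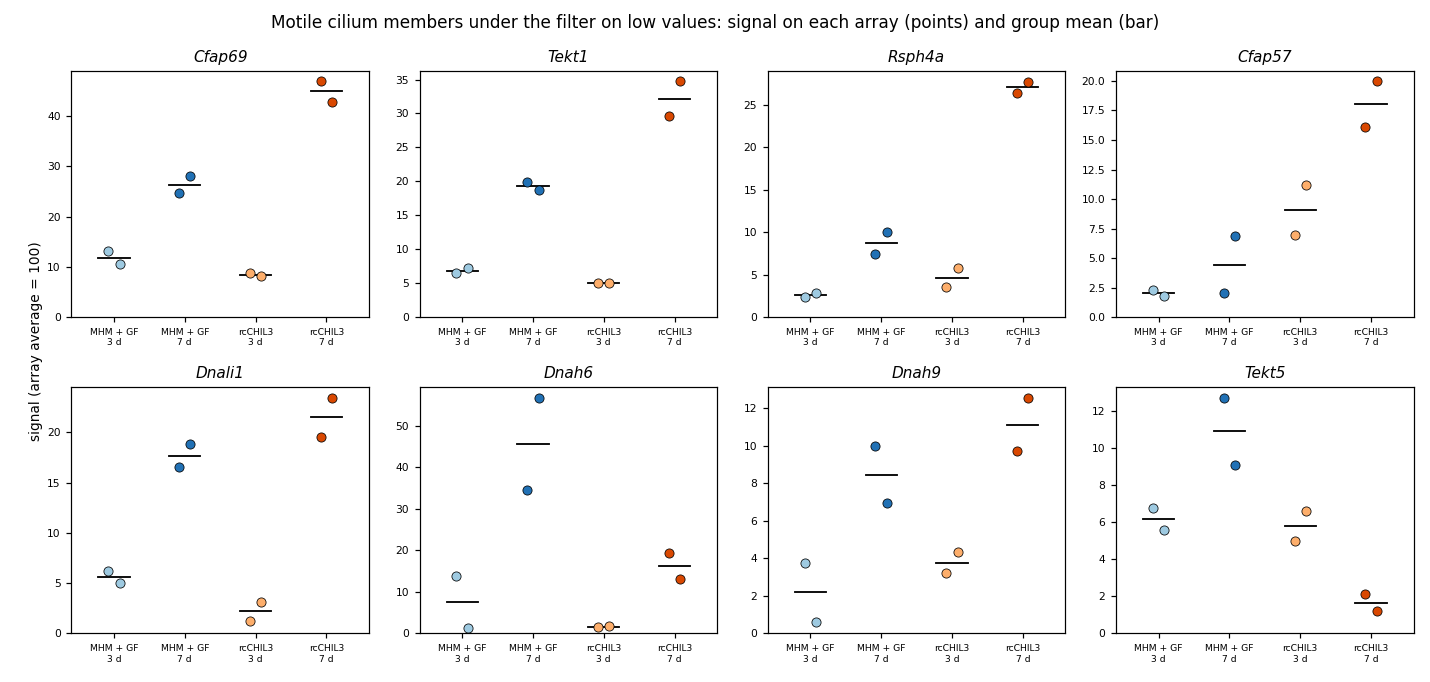
Signal on each array (points, vertical axis, array average 100, from 0) and group mean (bar) of 8 dim motile members, chosen after their values were seen, in the 4 groups (horizontal axis). Cfap69, Tekt1, Rsph4a and Cfap57 are highest on the rcCHIL3 7-day arrays, and Dnah6 and Tekt5 are highest on the MHM + GF 7-day arrays.

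Other motile cilium genes, taken from general knowledge, gave a less uniform picture. Of 55 on the array 17 were tested. With time 13 rose and 1 fell in MHM + GF, beside 34% and 24.2% of all tested genes, and 12 rose and 2 fell in rcCHIL3, beside 20.3% and 18.1%. For medium, 8 were higher and 4 lower with rcCHIL3 at 3 days, beside 30.3% and 22.1%, and 6 higher and 3 lower at 7 days, beside 21.8% and 22.6%. The medians were 0.25 and 0.04. Of those higher at 7 days, Dnaaf5, Drc1, Mns1 and Dynlrb2 reached 50 on the rcCHIL3 7-day arrays alone. Mlf1 reached it elsewhere only on the second MHM + GF 7-day array (50.4). These genes were tested because they were high at 7 days with rcCHIL3, so the counts are a description. Spag1, a dynein assembly factor, was 40.5 and 54.6 in MHM + GF and 239 and 219 with rcCHIL3 at 3 days (1.89, SE 0.10, adjusted p = 5.4e-08), and 226 and 235 against 170.4 and 159 at 7 days (-0.44, adjusted p = 0.0051). Drc1, of the nexin-dynein regulatory complex, was higher with rcCHIL3 at both days (0.51 and 0.65). Mlf1 was lower at 3 days (-0.44) and higher at 7 days (0.88). Dnaaf2, a dynein assembly factor, was lower at 3 days (-0.74, adjusted p = 0.00035). It reached 50 on the MHM + GF 3-day arrays alone (55.7 and 57.2), so it was tested because it was high there.

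The RFX genes stand in that list too and were picked after their values were seen. Rfx3, which acts on cilium genes, went from 380.1 and 342 to 718 and 679 in MHM + GF and from 432 and 465 to 637 and 596 with rcCHIL3. It rose in both media, and its rcCHIL3 effect was 0.30 at 3 days (adjusted p = 0.0055) and -0.18 at 7 days (adjusted p = 0.074), a difference of -0.47 (adjusted p = 0.0038). Rfx4, at signals of 696 to 1014, rose in MHM + GF (0.46) and fell in rcCHIL3 (-0.33). It was higher with rcCHIL3 at 3 days (0.46, adjusted p = 0.00014) and lower at 7 days (-0.33, adjusted p = 0.0021). Rfx1 was lower with rcCHIL3 at 3 days (-0.64, adjusted p = 0.00063), and Rfx2 was under the filter.

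Of the other general cilium genes 57 were on the array and 42 were tested. With time 24 rose and 2 fell in MHM + GF, beside 34% and 24.2% of all tested genes. In rcCHIL3 21 rose and 3 fell, beside 20.3% and 18.1%. For medium 4 were higher and 7 lower at 3 days and 3 higher and 7 lower at 7 days. These shares lie below those of all tested genes, 30.3% and 22.1% at 3 days and 21.8% and 22.6% at 7 days. The largest medium changes were those of Cep89, of the basal body appendages (-0.95 at 3 days), Cluap1, an IFT-B subunit (0.74 at 3 days), Gpr161, a ciliary receptor (-0.70 at 7 days), and B9d1, of the transition zone (-0.58 at 3 days).

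Genes of cilium disassembly and mitosis mostly fell with time and were lower with rcCHIL3. Of 14 tested, 12 were lower with rcCHIL3 at 3 days and 11 at 7 days, beside 22.1% and 22.6% of all tested genes. With time 12 fell in MHM + GF and 10 in rcCHIL3, beside 24.2% and 18.1%. In each medium 1 rose, beside 34% and 20.3%. Mki67, a marker of cycling cells, was 738 and 765 in MHM + GF at 3 days and 129 and 125 at 7 days, and 92.4, 82.2, 25.7 and 17.6 with rcCHIL3. The summed signal of the list was 4095 to 4193, 1159 to 1166, 839 to 924 and 620 to 685 in MHM + GF at 3 and 7 days and rcCHIL3 at 3 and 7 days. Its part in the members' changes was not tested.

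Ependymal markers other than Foxj1 moved with the members in part. Of 10 on the array, of which Enkur and Dynlrb2 also stand among the motile genes above, 6 were tested. With time 6 rose in MHM + GF, beside 34% of all tested genes. In rcCHIL3 4 rose and 1 fell, beside 20.3% and 18.1%. With rcCHIL3, 4 were higher and 1 lower at 3 days, beside 30.3% and 22.1% of all tested genes. At 7 days 3 were higher and 1 lower, beside 21.8% and 22.6%. Dynlrb2, among those higher at 7 days, was tested through the rcCHIL3 7-day arrays alone. S100b, also a marker of astrocytes, was higher with rcCHIL3 (1.49 at 3 days and 0.80 at 7 days), as was Rarres2 (0.41 and 1.05), whereas Cd24a was lower (-0.51 and -0.97). The summed ependymal signal ran from 1061.5 to 1138 in MHM + GF at 3 days, 1681 to 1684 at 7 days, 1139 to 1199 with rcCHIL3 at 3 days and 1436 to 1488 at 7 days. Cd24a and S100b, which other neural cells express too, made up much of these sums.

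Of 9 choroid plexus markers, whose epithelium also bears cilia, 3 were tested. With rcCHIL3, 2 were higher and 1 lower at 3 days, beside 30.3% and 22.1% of all tested genes. At 7 days 0 were higher and 1 lower, beside 21.8% and 22.6%. With time 2 rose in MHM + GF and 1 in rcCHIL3, beside 34% and 20.3%. Ttr differed widely between arrays of a group, at 30.3 and 171 in MHM + GF at 3 days and 146 and 477 with rcCHIL3. Folr1 was 4.96 and 4.02 in MHM + GF and 24.3 and 24.4 with rcCHIL3 at 3 days. The summed signal of the list was 355 to 544 and 678 to 898 in MHM + GF and 431 to 773 and 686 to 885 with rcCHIL3 at 3 and 7 days. The astrocyte list summed to 4969 to 5029.9 in MHM + GF at 3 days and to at least 6768 in the other groups. Neuroblast and neuron markers summed to 1347 to 1394 in MHM + GF and 1739 to 1815 with rcCHIL3 at 3 days, and to 2737 to 2795 and 1204 to 1300.4 at 7 days. The part of these cell types in the members' changes was not tested.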

How the data were processed

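Total RNA of secondary neurospheres was hybridized to Affymetrix mouse whole-genome 3' expression arrays, 8 in all. The deposited values are linear signal intensities that the authors made with MAS5 (Affymetrix Expression Console 1.1 in the submitters' processing notes, GeneChip Operating Software in the methods), with global scaling. Their array averages ran from 267.3 to 316.6, so each array was divided by its average and multiplied by 100. The 64 control probe sets were then left out. Of the other 45037 probe sets, 34945 are annotated with 1 symbol, 932 with several and 9160 with none, and genes were named from those with 1 symbol.

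Log2(signal + 20) was fitted for the 15679 probe sets that reached 50 on at least 2 arrays, with 4 group means in limma 3.58.1 (R 4.3.3, eBayes with trend, 4 residual degrees of freedom). Contrasts were rcCHIL3 against MHM + GF at each day, 7 against 3 days in each medium, and the difference of the rcCHIL3 effect between days. The two-sided p-values were adjusted by Benjamini-Hochberg over all probe sets tested, at a threshold of 0.05. Members under the filter came from a fit of all probe sets. The fit was tested on simulated data. The number of arrays limits the precision. Same-numbered arrays did not deviate together (r from -0.011 to 0.102) and the fit has no block. Named members were Foxj1, Tppp3 and the 10 of each class with the largest called change. Beside these stand the other tested members in brief, up to 5 dim ones, and up to 4 genes of each further list. Further dim members and the RFX genes lie outside this rule and were named after their values were seen. Alternatives changed the pseudocount, filter, scale, normalization, arrays in the fit, eBayes setting, test and probe set choice, and left out each array. A filter on the mean of the 8 arrays was chosen after seeing the data. The members and the gene lists were chosen with earlier results of these data known. Promoter sequences are from RefSeq (GRCm38.p6), and the sequence of 1 matching window is not reported here. Scaling and summaries used Python 3.11.15 with numpy 2.4.6 and pandas 2.3.3, and figures used matplotlib 3.10.9.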

Additional observations from a re-analysis of the deposited data

Results flagged for a closer look

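The rcCHIL3 effect differed between the days for 10 of the 35 tested members, by the limma test of that difference on the log2 scale (effect at 7 days minus effect at 3 days). The effect was larger at 7 days for 9 and smaller for 1, beside 19.2% and 24.1% of all tested genes. The difference was 1.60 for Rsph1 (SE 0.18, adjusted p = 3.1e-05), 0.91 for Ift27 (SE 0.10, adjusted p = 3.6e-05), 0.84 for Cfap36 (SE 0.12, adjusted p = 0.00017) and 0.58 for Cfap20 (SE 0.09, adjusted p = 0.00053). It was 0.67 for Cfap43 (SE 0.16, adjusted p = 0.0074) and 0.54 for Rsph9 (SE 0.14, adjusted p = 0.011). The smaller differences were 0.48 for Ift52 (SE 0.15, adjusted p = 0.026), 0.41 for Ift172 (SE 0.13, adjusted p = 0.029), 0.42 for Bbs5 (SE 0.14, adjusted p = 0.033) and -0.30 for Ift122 (SE 0.11, adjusted p = 0.048). These last 4 were lost when single arrays were left out (adjusted p up to 0.11, 0.099, 0.12 and 0.16 in that order). A group held 2 arrays, so no array could be set against the rest of its group.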

How the results depend on the processing

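No result reversed under any alternative run. Of 328 counts of members recomputed under other settings, 281 stayed within 1.5 times their value, and of 1605 member changes 1533 kept their direction and side of the threshold. With no filter, motile members were lower in 5 cases at 3 days and 3 at 7 days, 21 rose and 2 fell with time in MHM + GF, 22 rose in rcCHIL3, and the rcCHIL3 effect was larger at 7 days for 8 and smaller for 4. The general members then gave 1 larger and 0 smaller. With a filter of 20, 1 motile member was lower at 7 days, 17 rose in MHM + GF, the effect was larger for 9 and smaller for 1, and smaller for 0 general members. With a filter of 100, 2 general members were lower at 3 days and 0 at 7 days, and 9 rose in rcCHIL3. A filter on the mean of the 8 arrays, chosen after seeing the data, left 1 general member lower at 7 days.

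On the deposited scale more members passed the filter. There 5 motile members were lower at 3 days, 13 higher and 1 lower at 7 days, 18 rose in MHM + GF and 22 in rcCHIL3, and the effect was larger for 8 and smaller for 1. Of the general members 0 were higher at 3 days and 0 had a smaller effect. That scale moved the median of all genes by 0.11 for time in rcCHIL3 and by 0.16 for the difference between days. For rcCHIL3 against MHM + GF at 7 days it moved that median by 0.09. The shares of all genes called on that scale are not given here, so these counts are a description. Quantile normalization gave 4 general members lower at 7 days and 1 that fell in MHM + GF, as did median centring (1). Without a pseudocount, with a floor of 10, the effect was smaller for 2 motile members. Without a trend it was smaller for 2 general members, and with the mean of all probe sets for 3, with 4 lower at 7 days; the cause was not tested.

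The methods' t-test, with p unadjusted, left 3 motile members higher at 3 days. After Benjamini-Hochberg it left 2 motile members higher and 1 lower, and 1 general member higher and 0 lower, at 3 days. At 7 days it left 1 motile member higher and 0 general members higher or lower. With time it left 6 motile and 8 general members in MHM + GF, and 0 of either in rcCHIL3; before adjustment 13 motile and 10 general members had p under 0.05 there.

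With the replicate number as a block, 0 general members had a smaller effect, since Ift122 moved to adjusted p = 0.051, and 9 motile members were higher at 7 days. The block changed no other count of members by over 1.5 times. The arrays share only a number.

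Leaving out each array in turn gave 3 to 5 motile members higher and 2 to 3 lower at 3 days, 7 to 9 higher at 7 days, 11 to 12 rising in MHM + GF and 14 in rcCHIL3, and 5 to 6 with a larger effect. For general members it gave 1 to 2 higher and 2 to 4 lower at 3 days, 2 to 4 higher and 2 to 3 lower at 7 days, 11 to 13 rising and 0 to 1 falling in MHM + GF, 12 to 14 rising in rcCHIL3, and 1 to 4 with a larger and 0 to 1 with a smaller effect. The lone array of a group was then assumed to vary like the others. Signals under the filter lie near the background of the array and limit what can be said of the dim motile members.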
